A study of Mus musculus with 6 samples.

Results

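The genes described here are 5 Smads (Smad2, Smad3, Smad4, Smad6 and Smad7) and 5 regulators or targets of TGF-beta signalling (Ski, Skil, Tgif1, Pmepa1 and Tgfbi). They were found by matching the NCBI gene IDs of the deposited expression table to these symbols, and all 10 are among its 18019 gene IDs. Hearts of wild-type (WT) mice were taken 8 weeks after surgery, and both groups carried transverse aortic constriction (TAC), a surgical banding of the aorta that puts the left ventricle under pressure. In the VNS-TAC group the dorsal vagal motor nucleus had been injected with rAAV-ChAT-hChR2[H134R]-GFP, a virus whose ChAT promoter directs a channelrhodopsin, an ion channel opened by light, to cholinergic neurones. The Ctrl-TAC group had received rAAV-ChAT-GFP, which carries the fluorescent protein alone. There were 3 libraries in each group, assigned by sample title. The VNS-TAC library names carry 10Hz, and the protocols name optogenetic activation of vagal neurones without the settings. They do not say whether light reached the controls, or give strain, age or sex. The VNS-TAC libraries are numbered 1 to 3 as in the table.

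Receptors for TGF-beta phosphorylate the receptor-regulated Smads Smad2 and Smad3, which join the common partner Smad4 and enter the nucleus to act on target genes. The inhibitory Smads Smad6 and Smad7 act against signalling by receptors of the wider TGF-beta family, which includes those for BMP. Ski and Skil (also called SnoN) are co-repressors that bind Smad complexes, and Tgif1 is a homeodomain co-repressor of Smad2. Pmepa1 is a membrane protein that binds receptor-regulated Smads and keeps them from the receptor, and Tgfbi is a secreted matrix protein named for its induction by TGF-beta. Smad7, Skil and Pmepa1 are themselves induced by the pathway and so form feedback loops. In the overloaded heart the pathway is best known for its part in fibroblast activation and fibrosis.

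Values are FPKM (fragments scaled to gene length and library size), so levels of genes can be set side by side. The sum of FPKM was 516493 to 585330 per library. Pearson correlations over genes were 0.988 to 0.992 among Ctrl-TAC libraries and 0.941 to 0.979 among those of VNS-TAC, with the lowest value between VNS-TAC 1 and VNS-TAC 3. In VNS-TAC 1 the deviation of a gene from its mean tracked GC content (Spearman 0.549 over genes, which are not independent replicates). The value was 0.02 in VNS-TAC 2 and -0.103 in VNS-TAC 3. Ctrl-TAC 1 and Ctrl-TAC 2 tracked GC content in the opposite direction, at -0.316 and -0.417, and Ctrl-TAC 3 was at -0.086. The mean was taken over all 6 libraries, so a trend in 1 of them pushes the others the opposite way. The GC trend was thus partly aligned with the groups. Cardiomyocyte markers were abundant in every library, the sum of 8 markers being 36800 to 53700 FPKM in VNS-TAC and 40600 to 41200 in Ctrl-TAC.

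Setting VNS-TAC beside Ctrl-TAC addresses how optogenetic vagal activation, as the labels state it, relates to gene expression in a pressure-loaded heart. Genes are counted as lower or higher on average by the sign of the log2 fold change, which compares group means of log2(FPKM + 1). Of the 10 genes, 8 were lower on average in VNS-TAC, against 61.8% of all 11422 genes tested. Skil and Pmepa1 differed most, with means at 51.0% and 57.1% of those in Ctrl-TAC, whereas Smad3, Smad6 and Smad7 lay within 10% of theirs. None of the 10 passed limma at a Benjamini-Hochberg adjusted p under 0.05, and 0.00% of all genes did. At an unadjusted p under 0.05 there were 3 of the 10 (Pmepa1, Skil and Tgfbi), all lower, against 11.3% of all genes lower and 3.79% higher. In 5 of the 10 every VNS-TAC value lay below every Ctrl-TAC value, against 17.4% of all genes tested, and in none was every VNS-TAC value above, against 8.01%. The median log2 fold change on the log2(FPKM + 1) scale was -0.31 over the 10 genes and -0.08 over all genes. The 10 genes were chosen with earlier results of these data known, so these counts are a description.

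**Figure D1:**
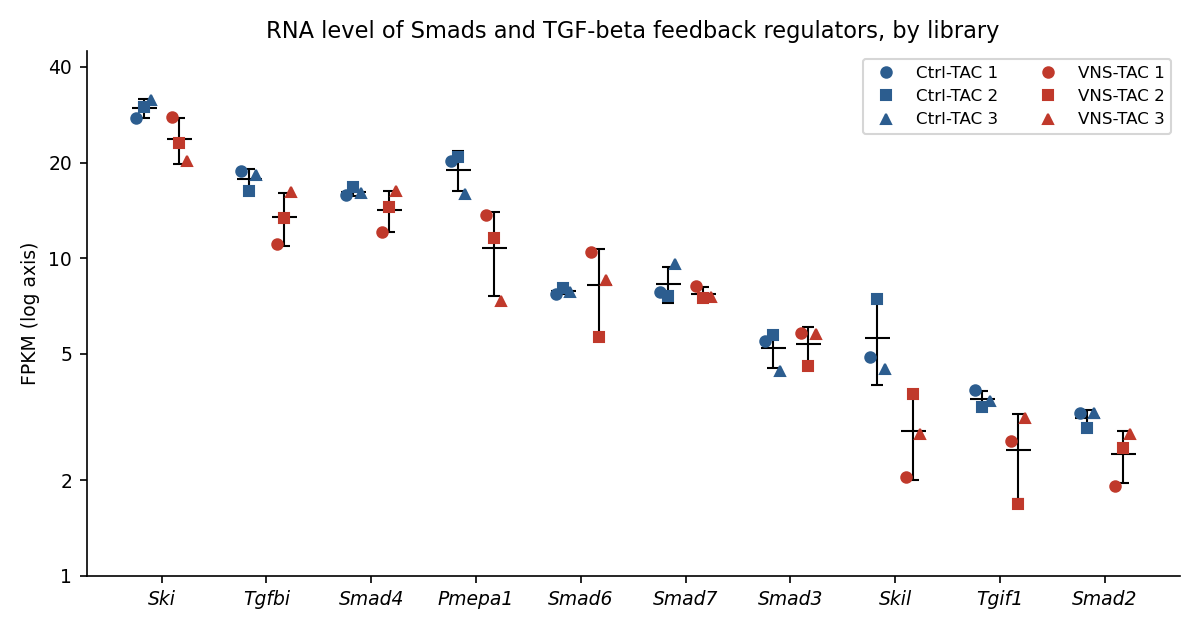
FPKM on a log axis for the 10 genes in order of their mean over the 6 libraries, with Ctrl-TAC in blue and VNS-TAC in red. Each symbol is a library, and bars give the mean and SD of 3 libraries. The groups do not overlap for Tgfbi, Pmepa1, Skil, Tgif1 and Smad2.

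Ski had the highest level, with a mean of 26.7 FPKM over the 6 libraries, and its values lay above all values of the next gene, Tgfbi (15.7 FPKM). Tgfbi, Smad4 (15.2 FPKM) and Pmepa1 (14.9 FPKM) overlapped in their order, as did Pmepa1 and Smad6 (8.05 FPKM) and then Smad6 and Smad7 (8.02 FPKM). Smad7 stood above Smad3 (5.29 FPKM) in all 6 libraries without overlap. Skil (4.24 FPKM), Tgif1 (3.04 FPKM) and Smad2 (2.78 FPKM) closed the order, each overlapping its neighbour. Of the receptor-regulated Smads, Smad3 RNA was therefore above Smad2 RNA, and their ratio (Smad2 over Smad3) overlapped between groups: 0.329, 0.552 and 0.485 for VNS-TAC 1, 2 and 3 against 0.594, 0.509 and 0.739 for Ctrl-TAC.

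Among the receptor-regulated Smads, Smad2 measured 1.91, 2.53 and 2.79 FPKM in VNS-TAC 1, 2 and 3 and 3.25, 2.92 and 3.26 FPKM in Ctrl-TAC 1, 2 and 3. The groups did not overlap, but VNS-TAC 3 and Ctrl-TAC 2 were close. The log2 fold change was -0.29 ± 0.15 (SE; limma adjusted p = 0.379), and -0.11 once the trend with GC content was removed or -0.18 without VNS-TAC 1, the library in which Smad2 was lowest. Smad3 was at 5.80, 4.58 and 5.75 FPKM against 5.47, 5.74 and 4.41. The ranges nearly coincided, each group holding 1 library clearly below its other 2. Its log2 fold change was 0.04, with a 95% interval of -0.31 to 0.39 (limma adjusted p = 0.912).

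Smad4, the common partner of the receptor-regulated Smads, measured 12.06, 14.45 and 16.22 FPKM in VNS-TAC 1, 2 and 3. It measured 15.86, 16.78 and 16.00 FPKM in Ctrl-TAC 1, 2 and 3. VNS-TAC 1 was lowest and VNS-TAC 3 lay among the Ctrl-TAC libraries. The log2 fold change was -0.18, with a 95% interval of -0.50 to 0.14 (limma adjusted p = 0.527). Smad2, Smad4 and Smad7 all lie on chromosome 18 and Smad3 and Smad6 on chromosome 9.

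The inhibitory Smads showed no shift between the groups beyond their spread. Smad6 measured 10.49, 5.65 and 8.54 FPKM in VNS-TAC 1, 2 and 3, spanning the narrow Ctrl-TAC range of 7.71, 8.06 and 7.83 FPKM on either side. Its SD was 2.44 FPKM in VNS-TAC and 0.178 FPKM in Ctrl-TAC, and this difference in spread was not tested. The log2 fold change was 0.02, with a 95% interval of -0.45 to 0.50 (limma adjusted p = 0.966). Smad7 was at 8.15, 7.47 and 7.54 FPKM against 7.80, 7.61 and 9.56. The groups overlapped, and Ctrl-TAC 3 was the highest of the 6. Its log2 fold change was -0.09, with a 95% interval of -0.40 to 0.22 (limma adjusted p = 0.745). These intervals do not exclude moderate differences in either direction. Smad6 over Smad7 gave ratios of 1.29, 0.756 and 1.13 against 0.988, 1.06 and 0.819 in Ctrl-TAC, which overlapped.

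The start of Smad6 is shown because it holds the palindrome GTCTAGAC, the letters of a known Smad binding element, across a RefSeq start of the gene. The stretch runs from position -100 to 10 relative to that start (chr9:64022050-64022159, minus strand, GRCm38.p6, RefSeq), and the palindrome, in capitals, lies at chr9:64022056-64022063. The full RefSeq span of the gene reaches further upstream, to 64022085, so by that span the palindrome lies inside the gene.
Smad6: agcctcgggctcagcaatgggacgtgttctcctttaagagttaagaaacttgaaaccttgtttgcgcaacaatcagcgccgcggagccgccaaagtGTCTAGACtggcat
The palindrome is its own reverse complement, and 0.213% of 32851 promoter windows of 300 bases (250 before and 50 after the start) hold it. RefSeq windows were matched for 5 of the 10 genes, namely Ski, Smad3, Smad6, Tgfbi and Tgif1, the last with 5 windows. The palindrome was found only in the Smad6 window among these. A match describes letters and not binding, and no readout of binding was measured here.

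Among the co-repressors, Skil measured 2.04, 3.74 and 2.80 FPKM in VNS-TAC 1, 2 and 3 and 4.90, 7.46 and 4.47 FPKM in Ctrl-TAC 1, 2 and 3. The groups did not overlap, with VNS-TAC 1 lowest and Ctrl-TAC 2 highest. Skil (chromosome 3, 31095058 to 31122923, GRCm38.p6) had a log2 fold change of -0.77 ± 0.23 (SE), with a limma adjusted p of 0.245 and an unadjusted p of 0.0107. The difference was -0.50 with the GC trend removed, the smallest of the alternatives, -0.53 with array weights and -0.58 without Ctrl-TAC 2. Skil remained under an unadjusted p of 0.05 in all 18 alternatives that tested it. A filter at a mean of 5 FPKM left it out.

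Its relative Ski measured 27.82, 23.01 and 20.21 FPKM in VNS-TAC 1, 2 and 3 and 27.56, 29.95 and 31.52 FPKM in Ctrl-TAC 1, 2 and 3. VNS-TAC 1 lay just above Ctrl-TAC 1, and the other VNS-TAC libraries were below all of Ctrl-TAC. The log2 fold change was -0.32 ± 0.14 (SE; limma adjusted p = 0.344), and -0.44 without VNS-TAC 1. Skil over Ski gave ratios of 0.0733, 0.163 and 0.139 against 0.178, 0.249 and 0.142 in Ctrl-TAC, which overlapped.

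Tgif1 measured 2.65, 1.68 and 3.14 FPKM in VNS-TAC 1, 2 and 3 and 3.83, 3.39 and 3.56 FPKM in Ctrl-TAC 1, 2 and 3. The groups did not overlap, and VNS-TAC 2 was by far the lowest library. The log2 fold change was -0.42 ± 0.18 (SE; limma adjusted p = 0.337), and -0.24 without VNS-TAC 2 or with the GC trend removed.

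Pmepa1 measured 13.63, 11.59 and 7.32 FPKM in VNS-TAC 1, 2 and 3 and 20.28, 20.82 and 15.88 FPKM in Ctrl-TAC 1, 2 and 3. All VNS-TAC libraries were below all Ctrl-TAC libraries, with VNS-TAC 3 lowest. Pmepa1 (chromosome 2, 173224458 to 173276731, GRCm38.p6) had a log2 fold change of -0.78 ± 0.23 (SE), with a limma adjusted p of 0.244 and an unadjusted p of 0.00939. It was -0.55 without VNS-TAC 3 and -0.96 without VNS-TAC 1, and the unadjusted p was under 0.05 in all 19 alternatives. With the GC trend removed the value was -0.81.

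Tgfbi measured 11.07, 13.34 and 16.17 FPKM in VNS-TAC 1, 2 and 3 and 18.88, 16.32 and 18.30 FPKM in Ctrl-TAC 1, 2 and 3. The groups touched without overlap, VNS-TAC 3 lying just below Ctrl-TAC 2. Tgfbi (chromosome 13, 56609586 to 56639359, GRCm38.p6) had a log2 fold change of -0.39 ± 0.16 (SE), with a limma adjusted p of 0.314 and an unadjusted p of 0.0414. Its unadjusted p was under 0.05 in 10 of 19 alternatives. It was 0.0908 without VNS-TAC 1, 0.0912 without VNS-TAC 2, and 0.126, 0.0566 and 0.107 without Ctrl-TAC 1, 2 and 3, and it was 0.0604 after size factors.

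The upstream stretch of Tgfbi is shown because it carries 2 copies of CAGAC, the core of the known Smad-responsive CAGA box, both read as GTCTG on this strand. It runs from position -250 to -64 (chr13:56609336-56609522, plus strand, GRCm38.p6, RefSeq) and the copies, in capitals, lie at chr13:56609347-56609351 and chr13:56609501-56609505.
Tgfbi: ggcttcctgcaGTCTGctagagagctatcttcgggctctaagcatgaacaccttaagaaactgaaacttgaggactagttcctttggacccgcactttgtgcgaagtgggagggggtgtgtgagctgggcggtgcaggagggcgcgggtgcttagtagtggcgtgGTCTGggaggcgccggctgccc
CAGAC or its reverse complement GTCTG is frequent and occurs in 49.6% of all windows and so is no rare feature. It was found in 3 of the 5 Tgif1 windows and in none of the windows of Ski, Smad3 and Smad6. The AP-1 sequence TGACTCA or TGAGTCA, held by 5.20% of all windows, was in none of the windows of these 5 genes. None of these motifs overlapped another in the windows.

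**Figure D2:**
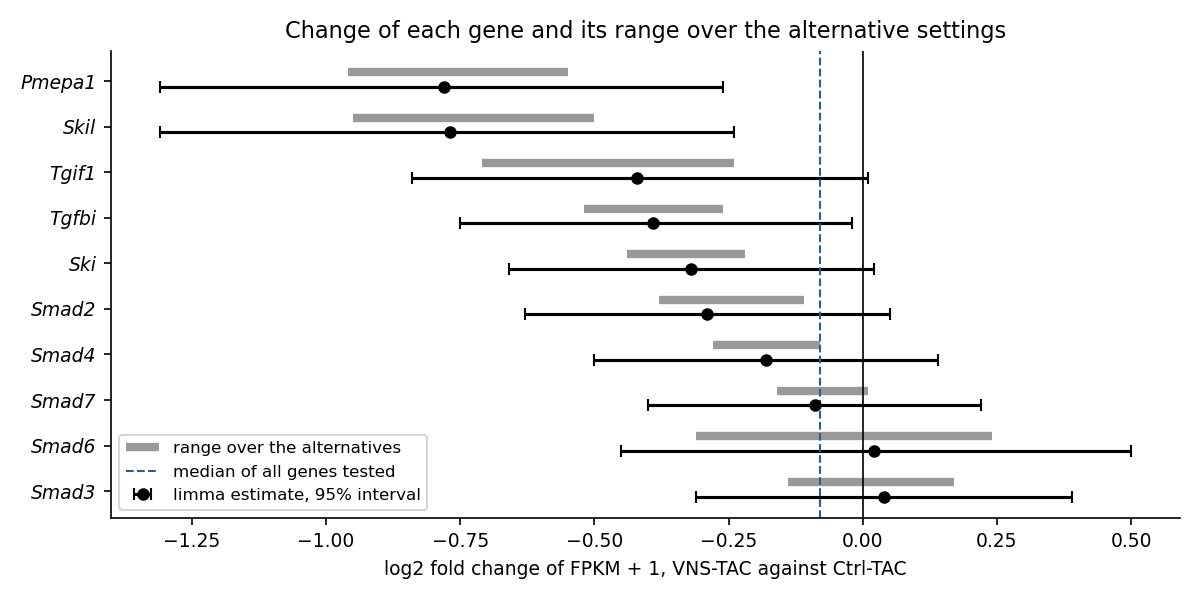
Log2 fold change of FPKM + 1, VNS-TAC against Ctrl-TAC, for each gene, with the limma estimate and its 95% interval in black and the range over the alternative settings in grey. The blue dashed line marks the median of all genes tested at -0.08. The intervals of Pmepa1, Skil and Tgfbi lie below 0, and those of the other genes include it.

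Each gene was also given an exact 2-sided permutation test over the 20 assignments of libraries to groups. With 3 libraries against 3 its smallest p is 0.1, and every gene without overlap between groups gets that value. Of all genes tested, 17.4% were lower without overlap and 8.01% higher. Smad2, Skil, Tgif1, Pmepa1 and Tgfbi, the genes without overlap, were at p = 0.1 in this exact test, which therefore only restates their separation. Ski gave 0.2, Smad4 0.3, Smad3 and Smad7 0.5 and Smad6 1 in the same exact test. With array weights, 3 of the 10 genes passed an adjusted p of 0.05, Tgif1 and Pmepa1 at 0.0156 and Tgfbi at 0.0446, against 6.65% of all genes lower and 2.25% higher in that fit. The weights were 0.246 and 0.247 for VNS-TAC 1 and VNS-TAC 3 and 2.82 for VNS-TAC 2, so 1 library carried most of the VNS-TAC side. With size factors, 2 of the 10 genes (Pmepa1 and Skil) had an unadjusted p under 0.05, against 7.88% of all genes lower and 6.92% higher, and none passed the adjusted threshold, against 0.0175% of all genes, all higher. After quantile normalization the count was also 2 and the background 6.65% lower and 7.94% higher. After rescaling to the same FPKM sum it was 5, with 15.5% lower and 1.86% higher. Over all genes the median log2 fold change ran from -0.15 to 0.02 over these scalings and centring on library medians, and that of the 10 genes from -0.37 to -0.20.

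The 3 VNS-TAC libraries did not carry the differences alike. Relative to the Ctrl-TAC mean on the log2 scale, the median of the 10 genes was -0.36 in VNS-TAC 1, -0.37 in VNS-TAC 2 and -0.13 in VNS-TAC 3, against -0.11, -0.07 and -0.02 for all genes tested. All 10 genes were below the Ctrl-TAC mean in VNS-TAC 2, 8 in VNS-TAC 1 and 7 in VNS-TAC 3. Pmepa1 and Ski deviated most in VNS-TAC 3, at -1.26 and -0.53, and less in VNS-TAC 1, at -0.44 and -0.09. Skil, Tgfbi, Smad2 and Smad4 did the opposite, at -1.09, -0.64, -0.51 and -0.40 in VNS-TAC 1 and at -0.77, -0.13, -0.13 and 0.00 in VNS-TAC 3.

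**Figure D3:**
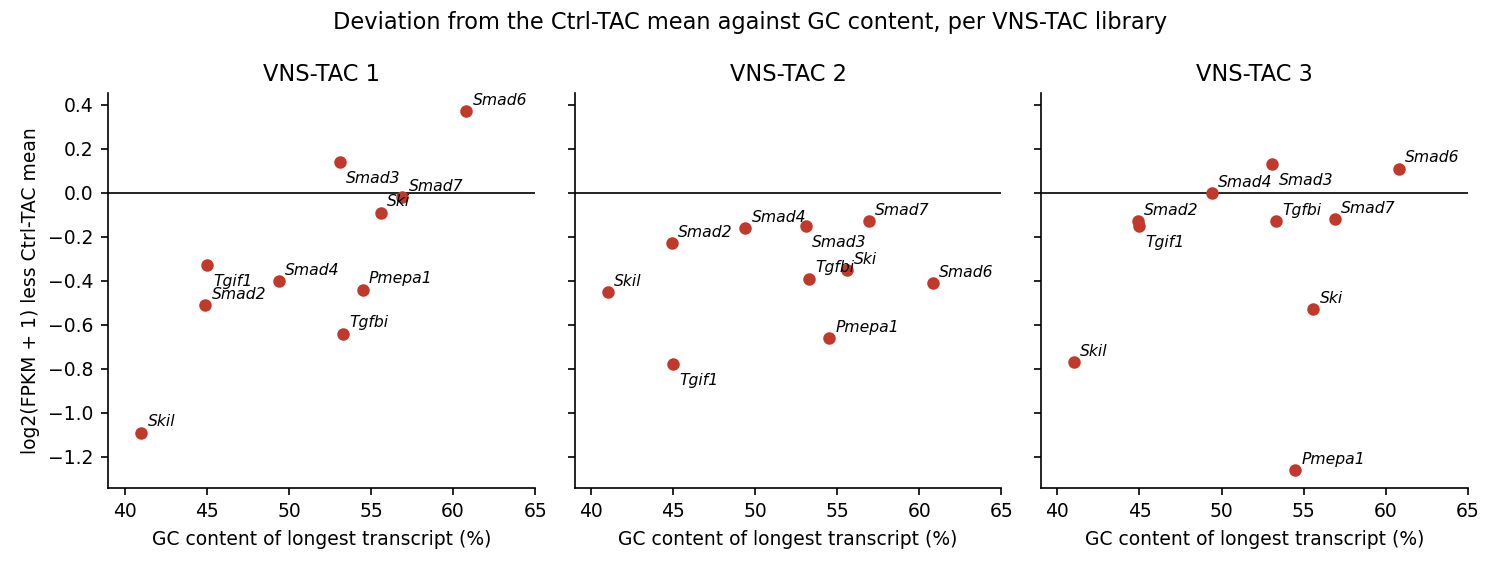
Deviation of each gene from its Ctrl-TAC mean, in log2(FPKM + 1), against the GC content of its longest transcript, with a panel for each VNS-TAC library. In VNS-TAC 1 Skil, with the lowest GC content (41.0%), lies lowest and Smad6, with the highest (60.8%), lies highest.

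The GC content of the longest annotated transcript was 41.0% for Skil, 44.9% for Smad2, 45% for Tgif1 and 49.4% for Smad4. It was 53.1% for Smad3, 53.3% for Tgfbi, 54.5% for Pmepa1, 55.6% for Ski, 56.9% for Smad7 and 60.8% for Smad6. In VNS-TAC 1 the 4 genes of lowest GC content lay at -1.09 to -0.33, Tgfbi and Pmepa1 at -0.64 and -0.44, and the other 4 at -0.09 to 0.37. With the GC trend removed, a setting chosen after seeing the data, the values of Pmepa1, Tgfbi and Ski were close to those without it, at -0.81, -0.39 and -0.35, and those of Skil, Tgif1 and Smad2 moved to -0.50, -0.24 and -0.11.

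As a description over the 6 libraries, which the genes share, the log2 levels of Smad2 and Tgfbi correlated at 0.98 (Pearson), those of Smad2 and Smad4 at 0.90, Smad4 and Tgfbi at 0.89 and Ski and Pmepa1 at 0.86. Smad3 and Smad7 correlated at -0.53 and Smad6 and Skil at -0.40. The genes tested whose pattern was most like Pmepa1 were Fmnl3 (0.997), Itga6 (0.995), an integrin subunit, and Scml4 (0.995). Those most like Skil were Zfp664 (0.995), Filip1l (0.994) and Gm20594 (0.994). With 6 libraries such values are common, since 694 genes correlated with Pmepa1 and 541 with Skil above 0.9.

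The other genes of the pathway were taken from 8 lists holding 83 genes, of which 75 reached a mean of 1 FPKM and were tested. Of these, 60 had a log2 fold change below 0 in VNS-TAC (80.0%, against 61.8% of all genes), 20 of them at an unadjusted p under 0.05. Ccn2 and Id2 count as lower in this way, though their mean FPKM was 226 and 7.56 in VNS-TAC against 208 and 7.42 in Ctrl-TAC. At that level 1 was higher, as were 3.79% of all genes. None passed limma at an adjusted p under 0.05. The share lower at an unadjusted p under 0.05 was 26.7%, against 11.3% of all genes, and the median log2 fold change was -0.28, against -0.08. With size factors, quantile normalization, centring and the same FPKM sum, 52 to 62 of the 75 were lower.

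**Figure D4:**
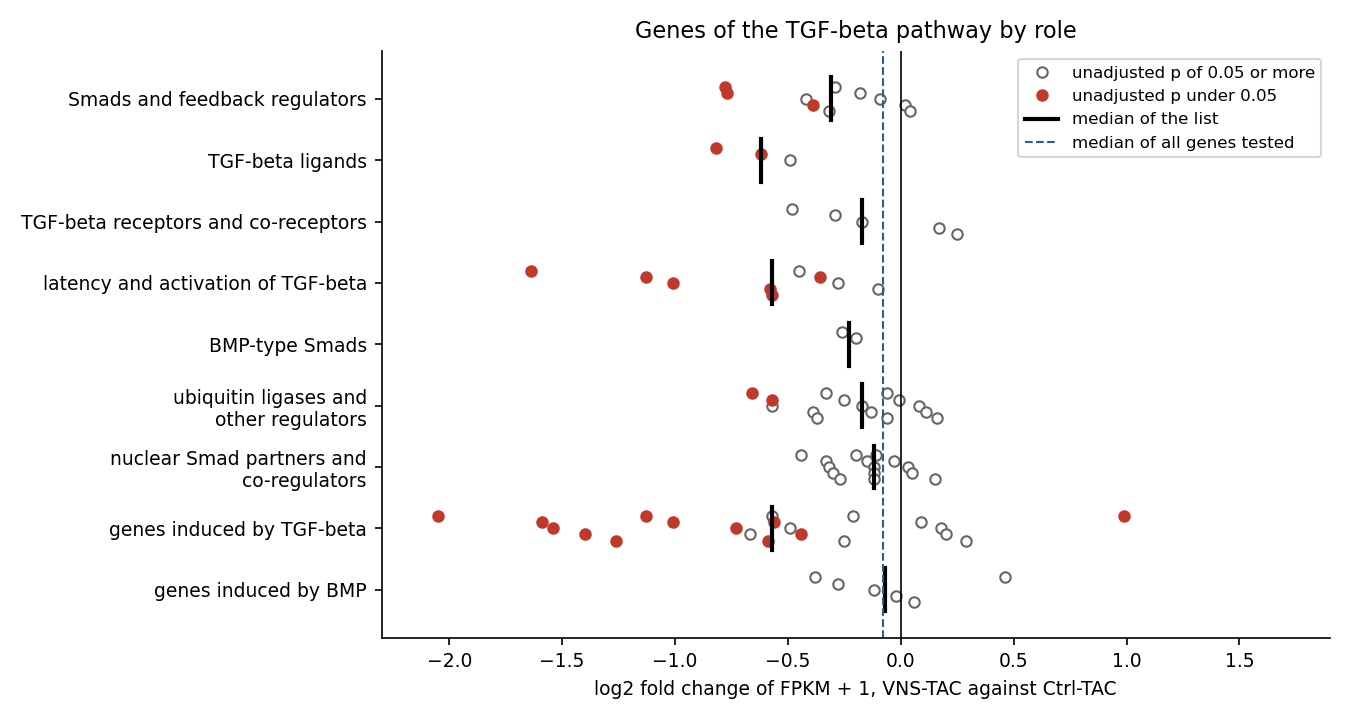
Log2 fold change of FPKM + 1, VNS-TAC against Ctrl-TAC, for each tested gene of the pathway, grouped by role. Filled points have an unadjusted limma p under 0.05, black bars are list medians, and the blue dashed line is the median of all genes at -0.08. Ligands, latency genes and genes induced by TGF-beta have medians of -0.62, -0.57 and -0.57, and receptors, nuclear partners and genes induced by BMP have medians of -0.17, -0.12 and -0.07.

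Upstream of the Smads, the ligand genes Tgfb1, Tgfb2 and Tgfb3 were all lower on average, 2 of the 3 at an unadjusted p under 0.05, against 11.3% of all genes. Tgfb3 averaged 6.66 ± 0.609 FPKM in VNS-TAC against 12.5 ± 0.852 (SD, n = 3), without overlap. Tgfb1 overlapped, at 21.88, 13.74 and 11.35 FPKM against 23.80, 22.24 and 19.12. Another list covered latency and activation, the storage of TGF-beta in the matrix and its release. Of its 9 tested genes all were lower, against 61.8% of all genes. An unadjusted p under 0.05 was reached by 6 (66.7%), against 11.3%. Thbs1, thrombospondin 1, an activator of latent TGF-beta, was at 4.63 ± 1.95 FPKM against 16.3 ± 4.8 (SD, n = 3). Ltbp1 and Ltbp2, which share the name latent TGF-beta binding protein, were at 7.10 ± 1.10 and 2.13 ± 1.31 FPKM against 11.2 ± 1.67 and 5.53 ± 1.10. Binding of TGF-beta by Ltbp2 is not implied by its name or its place in the list. Ltbp2 is also in the list of induced genes.

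Of 5 receptors and co-receptors, 3 (60.0%) were lower, near the 61.8% of all genes, and 0 had an unadjusted p under 0.05. Tgfbr1, the kinase that phosphorylates Smad2 and Smad3, overlapped, at 1.87, 3.87 and 4.57 FPKM against 4.91, 5.73 and 4.28. Acvrl1, an endothelial type I receptor, was at 13.7 ± 2.73 FPKM against 16.7 ± 0.196 (SD, n = 3), and Tgfbr3, the co-receptor betaglycan, at 9.0 ± 3.40 against 7.11 ± 0.846. Of the Smads of the BMP branch, Smad1 overlapped and Smad5 did not, Smad1 at 6.08 ± 1.02 FPKM against 7.10 ± 0.264 and Smad5 at 8.15 ± 0.898 against 9.93 ± 0.230 (limma adjusted p = 0.507 and 0.366). Smad9 was under the filter, with means of 0.753 and 0.663 FPKM.

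Of 15 ubiquitin ligases and other regulators of Smads or receptors, 12 were lower (80.0%, against 61.8% of all genes). Of these Ldlrad4 and Smurf2 had an unadjusted p under 0.05, and this share of 13.3% was near the 11.3% of all genes. Ldlrad4, a relative of Pmepa1 with a similar action on Smads, was at 3.52, 3.97 and 3.11 FPKM against 6.06, 6.54 and 5.89. The groups were far apart for its spread, with a log2 fold change of -0.66 ± 0.13 (SE; limma adjusted p = 0.190). Smurf2, a ligase that Smad7 brings to the receptor, was at 7.49, 8.21 and 6.52 FPKM against 11.60, 12.59 and 10.27, without overlap (log2 fold change -0.57 ± 0.14, SE; limma adjusted p = 0.214). Strap, which binds Smad7 and the receptor, was at 38.0 ± 5.84 FPKM against 47.5 ± 2.78 (SD, n = 3).

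Nuclear partners of the Smads had a median log2 fold change of -0.12, with 12 of 15 lower (80.0%, against 61.8% of all genes) and 0 at an unadjusted p under 0.05. Hdac2, a histone deacetylase, was at 15.4 ± 3.31 FPKM against 21.2 ± 4.32 (SD, n = 3), and Zeb1, a transcriptional repressor, at 7.65 ± 1.32 against 9.88 ± 1.59.

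Of 21 tested genes known to be induced by TGF-beta, 16 were lower (76.2%, against 61.8% of all genes), 11 of them at an unadjusted p under 0.05 (52.4%, against 11.3%). Comp, a cartilage matrix protein, was at 4.10 ± 1.95 FPKM against 12 ± 1.64 (SD, n = 3), and Postn, periostin, at 7.96 ± 5.27 against 32.3 ± 9.89. The gene that was higher at an unadjusted p under 0.05, as were 3.79% of all genes, was Cdkn1a, the cell cycle inhibitor p21, named after its values were seen, at 58.59, 60.51 and 109.89 FPKM against 26.42, 66.73 and 26.67. Of 6 tested genes induced by BMP, 4 were lower (66.7%) and 0 had an unadjusted p under 0.05, Id1 being at 55.8 ± 14.4 FPKM against 66.6 ± 7.84 and Hey1 at 5.62 ± 1.45 against 7.54 ± 1.18. Atoh8 was at 5.59, 8.36 and 12.24 FPKM against 5.46, 5.78 and 6.19.

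**Figure D5:**
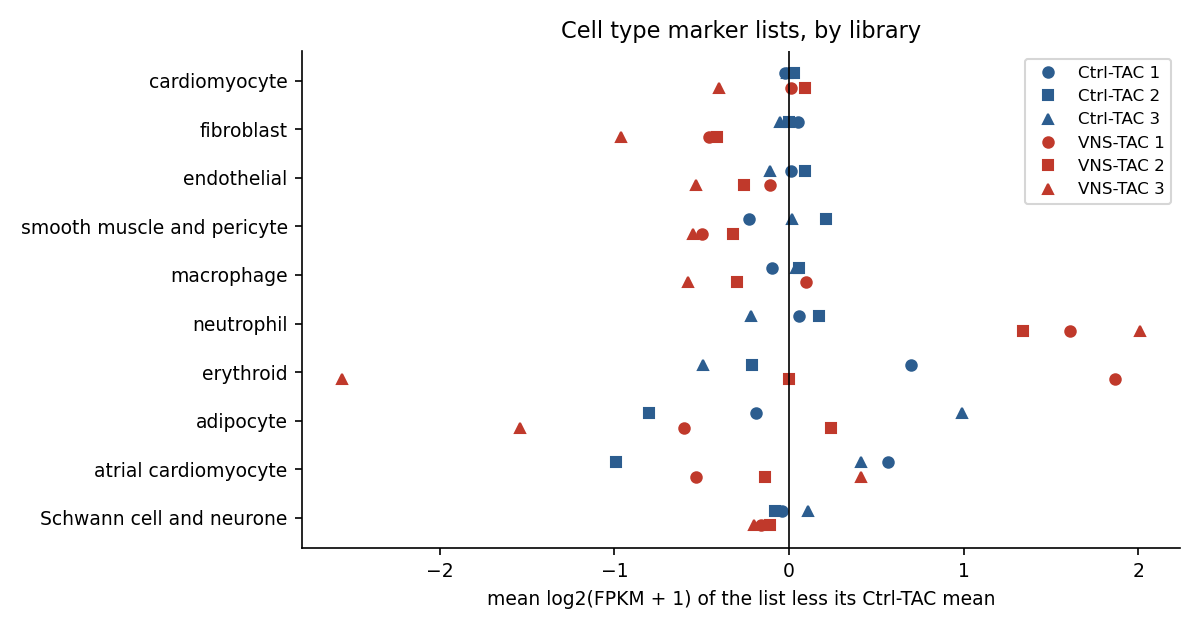
Mean log2(FPKM + 1) of each list of cell type markers less its Ctrl-TAC mean, by library, with Ctrl-TAC in blue and VNS-TAC in red. The neutrophil list is at 1.34 to 2.01 in VNS-TAC, and the fibroblast list at -0.96 to -0.41.

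Markers of several cell types differed between the groups. Of 8 fibroblast markers all were lower on average, against 61.8% of all genes, and 4 of the 8 had an unadjusted p under 0.05, against 11.3%. Col1a1, among those 4, is also in the list of genes induced by TGF-beta and is counted in both. VNS-TAC 1, 2 and 3 lay at -0.46, -0.41 and -0.96 from the Ctrl-TAC mean of the list (log2). Their summed level was 800 to 1170 FPKM in VNS-TAC and 1150 to 1160 in Ctrl-TAC. Within this list Lum, Dpt and Pdgfrl did not overlap between groups (37.5%, against 17.4% of all genes lower without overlap). Lum was at 21.23, 22.08 and 8.07 FPKM against 40.15, 36.60 and 44.23. The other 5 overlapped. Dcn was highest in VNS-TAC 3, at 387.71 FPKM against 278.57, 285.31 and 256.82 in Ctrl-TAC. Gsn was highest in VNS-TAC 2, at 823.42 FPKM against 703.1, 693.1 and 745.77. Among those 5, Pdgfra and Tcf21, which mark fibroblast identity, were at 5.34, 7.26 and 8.80 FPKM against 7.54, 9.05 and 8.28, and at 8.64, 7.84 and 7.12 against 9.09, 7.60 and 9.89. Of 8 smooth muscle and pericyte markers all were lower, with sums of 124 to 189 FPKM against 188 to 247, and of 8 endothelial markers 7, with sums of 558 to 824 against 864 to 913. The 8 macrophage markers all had a log2 fold change below 0, against 61.8% of all genes, and 0 had an unadjusted p under 0.05, against 11.3%. Lower without overlap were 2 (25.0%, against 17.4%), and the 8 summed to 125 to 238 FPKM against 177 to 187. Erythroid markers set VNS-TAC 1 and VNS-TAC 3 far apart, with sums of 1503, 310.2 and 25.08 FPKM in VNS-TAC 1, 2 and 3 against 577.7, 272.1 and 182.7. Neutrophil markers summed to 47.4 to 102 FPKM against 2.49 to 6.33, with 5 of 8 reaching a mean of 1 FPKM, and 0 of 6 T and B cell markers reached it. No marker was at 0 in every library of a group. The part of these cell types in the values of the 10 genes was not tested, and in whole tissue fewer cells of a type and less RNA per cell cannot be told apart.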

How the data were processed

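The deposited table gives FPKM values computed by the authors, per the file headers, to 2 decimals. The submitters' processing notes list GRCm38, HISAT, DESeq (1.8.3) and featureCounts (1.5.0-p3) without their roles, and no source names the annotation or strand setting. Ctrl-TAC columns carry their samples' library names. Columns of VNS-TAC carry the numbers 1 to 3 where the labels have 4 to 6, and entered only as members of their group. Separate animals are not stated, so p-values cover library spread alone, some of which may be technical.

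Symbols came from RefSeq (GRCm38.p6, 17890 IDs) and GENCODE M21 (15 more). Read depth is not in the table and no test used it; estimates from steps in low values were too weak (periodicity 0.227 to 0.276) to give counts. The 11422 genes averaging 1 FPKM or more were compared on log2(FPKM + 1), which understates changes of low genes, with limma 3.58.1 in R 4.3.3 (intensity trend, 4 residual degrees of freedom, Benjamini-Hochberg over all genes), after tests on simulated data. Tables used Python 3.11.15. The genes and lists were chosen with earlier results of these data known. The text names all 10 genes, the 3 genes of smallest p in each other list (2 of these are not reported here), and the 3 genes most like the 2 genes of smallest p. There were 19 alternatives, 2 of them (GC and length trends) chosen after seeing the data.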

Additional observations from a re-analysis of the deposited data

How the results depend on the processing

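Over 19 alternatives, the log2 fold changes of Pmepa1, Ski, Skil, Tgfbi, Tgif1, Smad2 and Smad4 stayed below 0 wherever they were tested. Smad3 changed sign after rescaling to the same FPKM sum (-0.025) and with array weights (-0.144), and ran from -0.056 to 0.133 when single libraries were left out. Smad6 changed sign after rescaling to the same sum (-0.047), with array weights (-0.314) and with the GC trend removed (-0.021), and ran from -0.155 to 0.24 without single libraries. Smad7 was at 0.014 after quantile normalization or centring on library medians, and ran from -0.146 to 0.002 without single libraries. The cause was not tested.

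Of all genes, 0 passed the adjusted threshold in the fit reported and 1719 had an unadjusted p under 0.05. Past the threshold were 1 with a filter at 5 FPKM, 2 with size factors, quantile normalization, centring or the GC trend removed, 1016 with array weights, and 0 to 3 without single libraries. At an unadjusted p there were 3441 with array weights and 766 to 2515 without single libraries, the lowest counts being without Ctrl-TAC 2 (766) and Ctrl-TAC 1 (835). Of the 10 genes, 3 passed the adjusted threshold with array weights. Those at an unadjusted p under 0.05 numbered 5 after rescaling to the same sum, 7 with array weights and 2 to 5 without single libraries, with 5 without VNS-TAC 3. The count over all 11422 genes also rose in these fits from 1719. It was 1980 after rescaling to the same sum, 3441 with array weights and 2478 without VNS-TAC 3. A filter at 5 FPKM tested 7 of the 10, of which 5 were lower. Low values limit Smad2, Skil and Tgif1, whose fold changes depend most on the pseudocount: Skil was at -0.95 with 0.1. No paired analysis was possible because a VNS-TAC column cannot be tied to 1 labelled sample by its number. The sample titles number replicates alike in both groups but do not state that libraries were paired.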
